A study of Mus musculus with 6 samples.

Results

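The genes described here are 44 genes that copy DNA in S phase, the part of the cell cycle in which the genome is replicated, measured in haematopoietic stem cells with and without an altered allele of Mecom. They were chosen by symbol from a list, and all 44 were among the 18465 genes of the deposited table. The list holds 19 genes of origin licensing and firing, 14 of the polymerases, the sliding clamp and the fork, 6 of nucleotide supply and uracil removal, and 5 of cyclin E, E2F and histone messenger control. RNA came from SLAM-LSK cells, a bone marrow fraction of C57BL/6 mice sorted as lineage-negative, CD48-negative and positive for Sca-1, c-Kit and CD150, which is rich in stem cells. The 3 WT samples carry no altered allele, and the 3 samples labelled MecomWT:R751W are heterozygous for the R751W allele. The sources used here give no age, sex or pooling of mice, and no treatment. The labels number the samples as biological replicates and leave unsaid whether each came from its own mouse, so a p-value here covers the spread between the 6 samples, which may in part be technical.

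Each origin of replication is licensed in G1, when the origin recognition complex, CDC6 and CDT1 load the ring-shaped MCM2 to MCM7 helicase onto DNA. In S phase the DBF4-dependent kinase CDC7 and cyclin E with CDK2 switch the helicase on, with CDC45 and the GINS complex as its partners, and geminin blocks CDT1 so that no origin is licensed again. Many of these genes are switched on late in G1 by E2F transcription factors, and most stem cells of adult marrow rest outside the cycle. Mecom encodes a zinc finger transcription factor needed to maintain those stem cells.

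Because E2F binding is the known common control of this gene group, promoters of 4 members are shown, those of smallest p among the members of 3 role groups (Pola1, Rrm2, Slbp) and that of Mcm5, a helicase subunit. Each runs 5′ to 3′ over 300 bases around a start of the gene that RefSeq gives in GRCm38.p6. For Pola1 and Mcm5 that start lies inside the whole gene span, whose 5′ end is at 93632387 and 75109468, respectively. Most of the Pola1 window falls within that span. Capitals mark the E2F words TTTCCCGC, TTTCGCGC, TTTGCCGC and TTTGGCGC, searched on both strands. The windows are chrX:93632106-93632405 on the minus strand, chr8:75109259-75109558 on the plus strand, chr12:24708004-24708303 on the plus strand and chr5:33652525-33652824 on the minus strand.
Pola1: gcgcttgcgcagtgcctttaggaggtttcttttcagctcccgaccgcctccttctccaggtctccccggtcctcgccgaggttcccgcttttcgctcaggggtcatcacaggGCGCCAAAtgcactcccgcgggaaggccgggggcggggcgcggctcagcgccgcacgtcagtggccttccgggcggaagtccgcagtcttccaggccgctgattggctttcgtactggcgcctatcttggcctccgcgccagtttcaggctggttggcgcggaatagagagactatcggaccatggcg
Mcm5: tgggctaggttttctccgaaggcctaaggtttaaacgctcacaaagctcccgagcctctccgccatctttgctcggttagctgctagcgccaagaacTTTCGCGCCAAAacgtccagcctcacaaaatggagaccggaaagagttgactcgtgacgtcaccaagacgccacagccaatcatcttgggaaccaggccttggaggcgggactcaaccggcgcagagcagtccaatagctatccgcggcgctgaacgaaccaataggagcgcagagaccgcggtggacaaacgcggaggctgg
Rrm2: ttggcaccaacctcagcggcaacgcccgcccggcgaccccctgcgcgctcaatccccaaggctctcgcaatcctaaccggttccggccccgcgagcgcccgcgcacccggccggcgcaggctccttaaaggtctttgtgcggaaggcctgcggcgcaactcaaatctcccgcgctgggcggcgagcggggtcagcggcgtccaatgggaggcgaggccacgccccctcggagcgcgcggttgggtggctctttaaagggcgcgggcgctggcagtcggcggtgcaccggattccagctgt
Slbp: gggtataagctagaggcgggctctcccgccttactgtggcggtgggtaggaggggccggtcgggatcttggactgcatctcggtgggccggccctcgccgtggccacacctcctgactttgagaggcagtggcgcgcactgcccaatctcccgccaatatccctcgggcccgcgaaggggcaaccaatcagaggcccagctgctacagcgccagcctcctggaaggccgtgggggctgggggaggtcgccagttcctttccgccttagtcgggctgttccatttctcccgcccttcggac
The window of Mcm5, which encodes a subunit of the replicative helicase, held TTTCGCGC and, on the other strand and overlapping it, TTTGGCGC. In that of Pola1, the catalytic subunit of the polymerase that starts each new strand, TTTGGCGC lay on the other strand, within the gene span. The windows of Rrm2 and Slbp held none of the 4 words. Of the 44 members, 37 had a window in the RefSeq table, Gmnn not among them. A word was found for 13 of these 37 (35.1%), against 2.6% of 27025 genes with a window and 4.9% of 9262 protein-coding genes past the expression filter. It was found for 8 of 14 licensing genes, 4 of 13 polymerase, clamp and fork genes, 0 of 6 nucleotide supply genes and 1 of 4 in the cyclin E and E2F group. A CCAAT box (CCAAT, either strand) was found for 21 of 37 members, 56.8% against 41.1% of all genes and 43.6% of those protein-coding genes. The cell cycle homology region (TTTGAA or TTCGAA, either strand) was found for 9, 24.3% against 21.7% and 16.9%. The median log2 fold change between genotypes was 0.11 for the 13 members with an E2F word and 0.15 for the 24 without one. A match is a description of these letters, and windows follow RefSeq starts. The start used for E2f1 lies 294 bases downstream of the nearest GENCODE start, so its window is not printed. That window still counts above as lacking an E2F word, as does that of Pcna, whose start lies 134 bases downstream.

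Values are TPM, the reads of a gene divided by its length and scaled to 1000000 in each library. Implied depth was 10427533 to 12378149 reads per library, and protein-coding genes took 25.87% to 30.11% of TPM in WT and 26.02% to 29.73% in MecomWT:R751W, lowest in replicate 2 of both. Genes of the sort markers were present in all 6 libraries, with Kit at 137 to 198 TPM, Slamf1, which encodes CD150, at 9.50 to 16.5 TPM and Ly6a, which encodes Sca-1, at 8.64 to 13.2 TPM. Of 7 B and plasma cell markers 1 was listed, Cd79b at 5.30 to 8.21 TPM. The markers Cd79a, Ms4a1, Cd3d, Cd3e, Cd3g, Cd8a, S100a8, S100a9 and Elane were not in the table. Other myeloid markers were present, with Lyz2 at 58.7 to 85.4 TPM, Ngp at 1.00 to 12.2 TPM and Prtn3 at 24.1 to 32.9 TPM. Neutrophil and monocyte markers, 3 of 8 in the table, summed to 70.8 to 98.8 TPM in WT and 61.5 to 79.3 TPM in MecomWT:R751W.

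The S phase genes were well expressed in this fraction. Mean TPM ran from 2.92 for E2f2 to 142 for Mcm6, the median member stood at percentile 82.3 of protein-coding genes, and 37 of 44 were above the median of those genes. Every member passed the filter of a mean of at least 1 TPM over the 6 libraries, and 0 values were under 1 TPM. Implied reads per library ran from 42 for Gins3 to 5864 for Mcm6. In bulk RNA, more cells in S phase and more RNA of these genes per cell cannot be told apart.

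Between genotypes, 41 of the 44 members had a positive log2 fold change (MecomWT:R751W minus WT, on log2(TPM + 1)), against 49% of the 16655 genes tested and 48% of the protein-coding ones. Their median was 0.15, with a range of -0.11 to 0.49, against a median of -0.004 for all genes. With limma and Benjamini-Hochberg adjustment over all genes, 0 members passed an adjusted p of 0.05, as did 0% of all genes in either direction. The smallest adjusted p of a member was 0.612, for Rrm2. At an unadjusted p under 0.05 there were 7 members, all higher, where 2.74% of all genes were higher and 3.23% lower. In 14 members (Mcm4, Mcm10, Cdc6, Cdt1, Gmnn, Cdc45, Dbf4, Rfc5, Pola1, Prim1, Pold1, Lig1, Rrm2 and Dut) every MecomWT:R751W library lay above every WT library, which is true of 4.5% of all genes and 4.21% of protein-coding genes. In 0 members the order was the opposite, against 4.7% of all genes. For each of the 14, the exact two-sided permutation p was 0.1, the smallest that 3 libraries against 3 allow. Members of a list that share a stage of the cell cycle are not independent of each other, so these counts are a description.

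**Figure D1:**
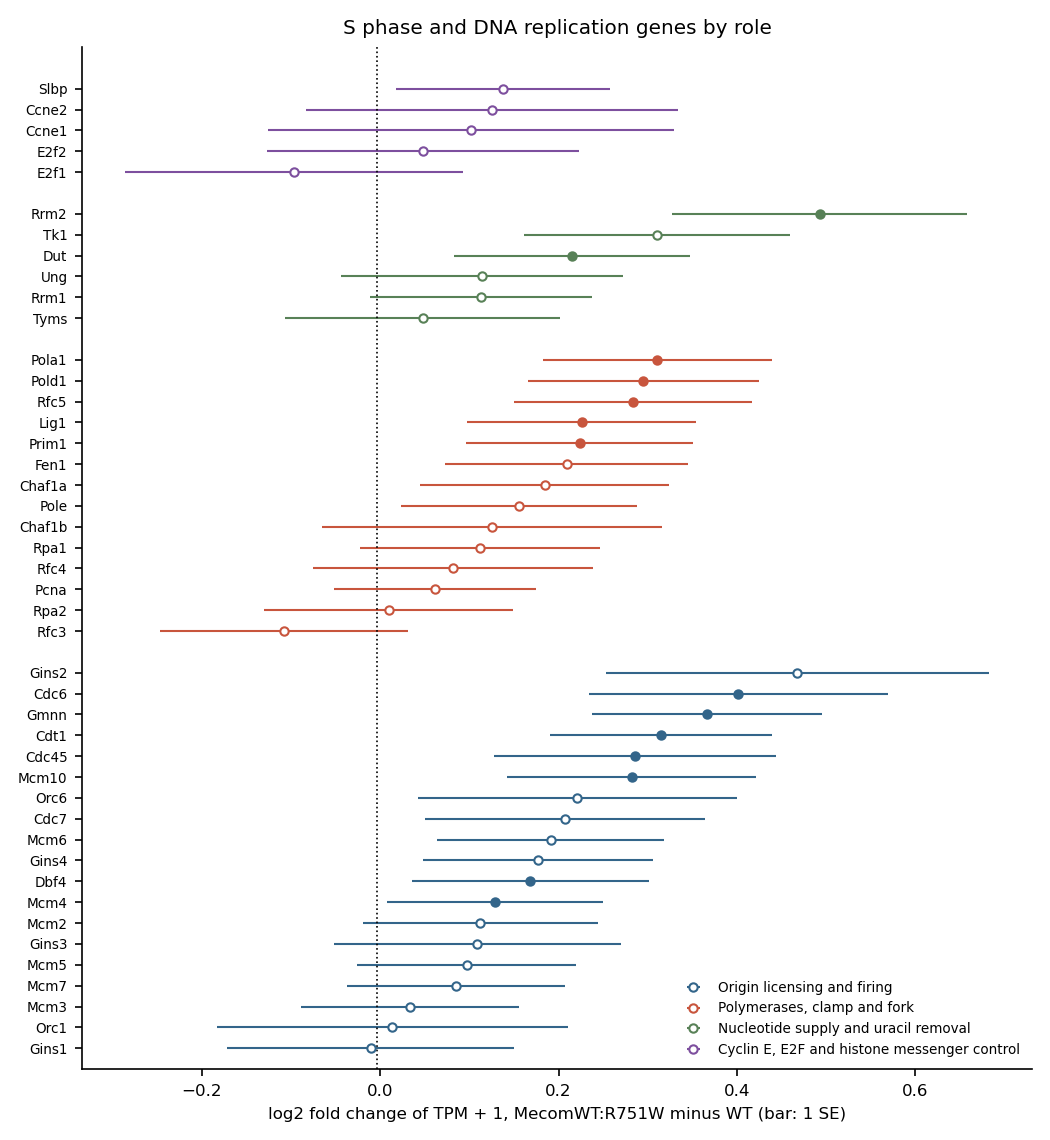
Log2 fold change of TPM + 1 (x axis, MecomWT:R751W minus WT) for the 44 members, grouped by role, with bars of 1 SE from limma, the dotted line at the median of all genes tested (-0.004) and filled points for the 14 members whose genotypes did not overlap. All but 3 members (Gins1, Rfc3 and E2f1) lie above 0, and the cyclin E and E2F group has no filled point.

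In the licensing group the smallest unadjusted p values were those of Gmnn, Cdt1 and Cdc6. Gmnn encodes geminin, and lies on chromosome 13 from 24751845 to 24761937 in GRCm38. In order of replicate number, as in all such series of values, the WT libraries read 22.9, 23.3 and 26.2 TPM and the MecomWT:R751W libraries 29.9, 33.2 and 31.1 TPM. Its log2 fold change was 0.37 (SE 0.13, limma adjusted p = 0.665). Cdt1, the loader that geminin blocks, on chromosome 8 from 122568015 to 122573130, was at 27.1, 24.6 and 26.9 TPM in WT and 33.5, 32.6 and 32.3 TPM in MecomWT:R751W, a difference of 0.31 (SE 0.12). The ratio of Cdt1 to Gmnn was 1.09 ± 0.0827 in WT and 1.05 ± 0.0686 in MecomWT:R751W (SD, n = 3 each), with overlapping groups. Cdc6, the ATPase that works with CDT1, was low, at 4.77, 5.33 and 6.42 TPM in WT and 6.96, 7.78 and 7.93 TPM in MecomWT:R751W, a log2 fold change of 0.40 (SE 0.17). All 3 altered libraries lay above all 3 WT libraries for each of these 3 genes.

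The initiator Orc1, the largest subunit of the origin recognition complex, had nearly the same mean in both genotypes. It was at 5.26, 3.96 and 3.13 TPM in WT and 4.72, 3.84 and 3.77 TPM in MecomWT:R751W (log2 fold change 0.01, SE 0.20), and WT libraries held both its highest and its lowest value. Orc6, another subunit, stood at 0.22 (SE 0.18) with overlapping groups, and at 0.08 once WT replicate 2 was left out. Leaving out MecomWT:R751W replicate 1 gave 0.09, and leaving out replicate 2 of that genotype gave 0.39.

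The 6 subunits of the MCM2 to MCM7 ring were the most abundant of the licensing genes and differed little. Their mean TPM ran from 66.1 for Mcm5 to 142 for Mcm6, and their log2 fold changes from 0.03 to 0.19 with a median of 0.11. Mcm6 was at 145, 116 and 138 TPM in WT and 155, 142 and 157 TPM in MecomWT:R751W. For Mcm3 the WT libraries read 156, 126 and 139 TPM and the MecomWT:R751W libraries 140, 143 and 147 TPM, so the altered libraries lay inside the WT range. Mcm2 was at 85.9, 68.5 and 88.5 TPM in WT and 84.6, 84.1 and 92.6 TPM in MecomWT:R751W. Mcm7 was at 73.2, 63.2 and 76.1 TPM against 72.9, 76.0 and 76.2 TPM. Both overlapped, with WT replicate 2 lowest. Mcm5 was at 70.4, 60.6 and 60.6 TPM in WT and 71.7, 64.4 and 68.6 TPM in MecomWT:R751W. Mcm4 alone of the ring was separate, at 68.0, 58.6 and 67.5 TPM against 70.3, 68.2 and 73.6 TPM with WT replicate 1 just under MecomWT:R751W replicate 2, and a log2 fold change of 0.13 (SE 0.12). Without WT replicate 2 Mcm4 stood at 0.06 and Mcm6 at 0.09.

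Of the factors that turn the loaded ring into a working helicase, Cdc45, Mcm10 and Dbf4 had separate groups. Cdc45, a partner of the active helicase, was at 8.43, 8.06 and 10.2 TPM in WT and 10.3, 12.2 and 10.6 TPM in MecomWT:R751W, a log2 fold change of 0.29 (SE 0.16). Mcm10, which helps to activate the helicase, stood at 0.28 (SE 0.14) with separate groups, from 17.8 ± 1.78 to 21.8 ± 1.65 TPM (SD, n = 3). The ratio of Mcm10 to Mcm3 was 0.127 ± 0.0157 in WT and 0.152 ± 0.0089 in MecomWT:R751W, without overlap. This pair was chosen after its values were seen. The kinase gene Cdc7 stood at 0.21 (SE 0.16), at 0.13 without WT replicate 1 and at 0.08 without MecomWT:R751W replicate 3, and its activator Dbf4 at 0.17 (SE 0.13).

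The 4 subunits of GINS, which work as one complex, all overlapped between genotypes. Gins2 had the largest log2 fold change of the licensing group, 0.47 (SE 0.21), but WT replicate 3 was at 30.3 TPM beside 19.4 and 14.1 TPM in the other WT libraries, and the MecomWT:R751W libraries were at 28.0, 26.6 and 30.7 TPM. The value was 0.75 without WT replicate 3 and 0.22 without WT replicate 2. Gins1 stood at -0.01 (SE 0.16), Gins3 at 0.11 (SE 0.16) and Gins4 at 0.18 (SE 0.13, and 0.11 without MecomWT:R751W replicate 1). The ratio of Gins2 to Gins1 was 1.89 ± 0.993 in WT and 2.46 ± 0.127 in MecomWT:R751W, with overlap (exact two-sided permutation p = 0.4, n = 3 each).

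**Figure D2:**
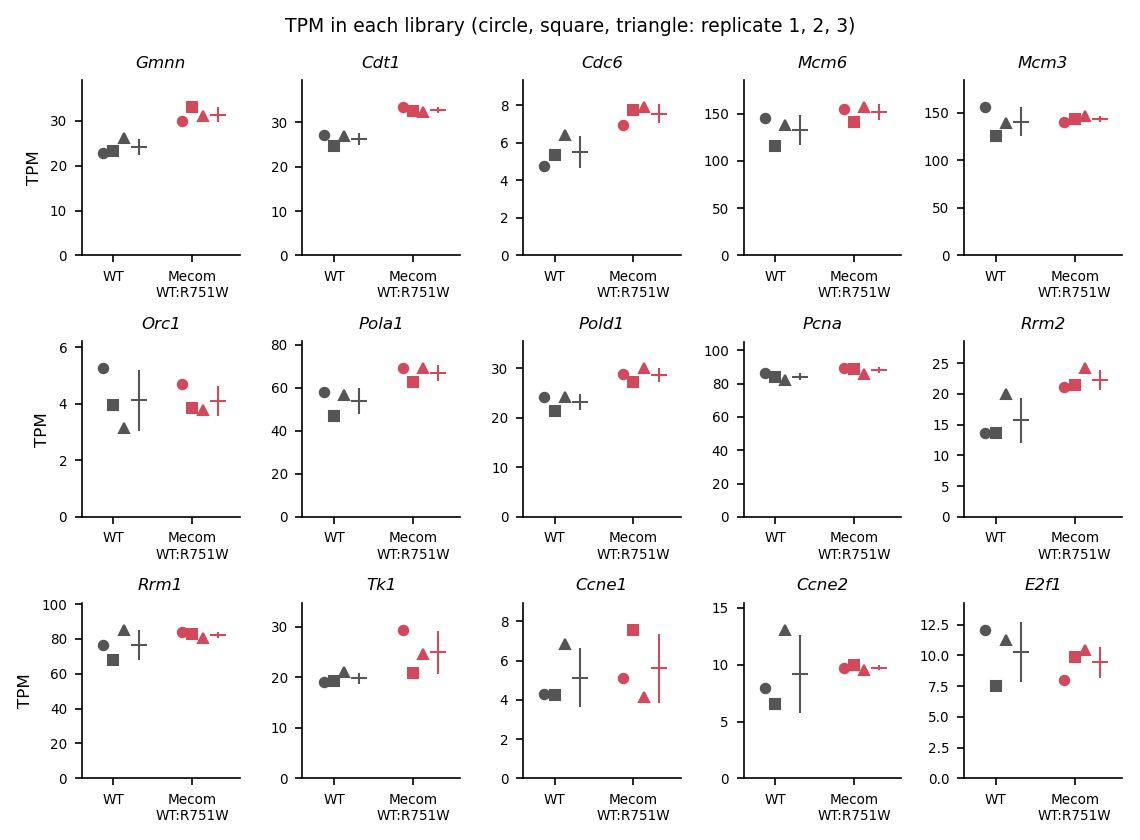
TPM (y axis, from 0) in each library for 15 members, with WT in grey and MecomWT:R751W in red, a symbol per replicate and, at the right of each group, the mean and 1 SD. Gmnn, Cdt1, Cdc6, Pola1, Pold1 and Rrm2 show separate groups, while Mcm3, Orc1, Ccne1, Ccne2 and E2f1 overlap.

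At the replication fork, several polymerase genes had separate groups and the clamp did not. Pola1, on chromosome X from 93304766 to 93632387, was at 58.1, 47.0 and 56.8 TPM in WT and 69.1, 62.6 and 69.1 TPM in MecomWT:R751W. Its log2 fold change was 0.31 (SE 0.13, limma adjusted p = 0.773). Its partner Prim1, the primase subunit that lays down RNA primers, stood at 0.22 (SE 0.13) with separate groups, and the ratio of Pola1 to Prim1 overlapped between genotypes. Pold1, the catalytic subunit of the lagging strand polymerase, was at 24.2, 21.3 and 24.1 TPM in WT and 28.78, 27.21 and 29.96 TPM in MecomWT:R751W, a difference of 0.30 (SE 0.13). Pole, its counterpart on the leading strand, stood at 0.16 (SE 0.13) and at 0.06 without WT replicate 2. The ratio of Pold1 to Pole was 0.770 ± 0.0404 in WT and 0.851 ± 0.0251 in MecomWT:R751W, and these groups did not overlap. That pair, too, was chosen after its values were seen.

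Pcna, the sliding clamp that holds polymerases on DNA, overlapped between genotypes. It was at 86.7, 84.0 and 82.1 TPM in WT and 89.2, 88.8 and 85.9 TPM in MecomWT:R751W, a log2 fold change of 0.06 (SE 0.11). Of the genes for the loader that opens the clamp, Rfc5 was at 25.4, 26.7 and 28.4 TPM in WT and 29.3, 33.4 and 36.3 TPM in MecomWT:R751W (0.28, SE 0.13), Rfc4 stood at 0.08 (SE 0.16) and Rfc3 at -0.11 (SE 0.14). The ratio of Rfc5 to Rfc3 was 1.40 ± 0.191 in WT and 1.85 ± 0.243 in MecomWT:R751W (SD, n = 3 each), with no overlap. The pair was chosen with its values known, Rfc5 being the highest and Rfc3 the lowest of the 3 in log2 fold change. Lig1, the ligase that joins lagging strand fragments, was at 79.9 ± 10.5 and 93.1 ± 0.713 TPM with separate groups, and its log2 fold change of 0.23 (SE 0.13) became 0.12 without WT replicate 2. Fen1, the flap nuclease of the same step, stood at 0.21 (SE 0.14), also 0.12 without WT replicate 2. The genes for the single-strand binding protein, Rpa1 and Rpa2, stood at 0.11 (SE 0.13) and 0.01 (SE 0.14), and those of the histone chaperone CAF-1, Chaf1a and Chaf1b, at 0.18 (SE 0.14, and 0.07 without WT replicate 2) and 0.13 (SE 0.19). All 4 overlapped.

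Nucleotide supply includes both subunits of ribonucleotide reductase, the enzyme that makes deoxyribonucleotides. Rrm2, the small subunit whose level follows S phase, lies on chromosome 12 from 24708254 to 24714146 and had the largest log2 fold change of all members, 0.49 (SE 0.17). It was at 13.6, 13.6 and 20.0 TPM in WT and 21.1, 21.5 and 24.2 TPM in MecomWT:R751W, so that WT replicate 3 lay just under the lowest altered library and well above the other WT libraries. Rrm1, the large subunit, was at 76.3, 67.7 and 85.2 TPM in WT and 84.0, 82.6 and 80.6 TPM in MecomWT:R751W (0.11, SE 0.12), and WT replicate 3 was its highest library. The ratio of Rrm2 to Rrm1 was 0.179, 0.201 and 0.234 in WT and 0.251, 0.261 and 0.300 in MecomWT:R751W, without overlap (exact two-sided permutation p = 0.1, 0.25 after adjustment over the 10 ratios computed, n = 3 each). The adjustment does not cover the choice of this pair, which was made after its values were seen.

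Both routes to thymidylate are among the members. Tk1, the salvage kinase for thymidine, was at 19.0, 19.3 and 20.9 TPM in WT and 29.4, 20.9 and 24.5 TPM in MecomWT:R751W. Its log2 fold change of 0.31 (SE 0.15) became 0.19 without MecomWT:R751W replicate 1, and the groups met, with WT replicate 3 level with MecomWT:R751W replicate 2. Tyms, which makes thymidylate anew, was at 10.6, 8.66 and 10.6 TPM in WT and 11.1, 9.63 and 10.0 TPM in MecomWT:R751W (0.05, SE 0.15), with overlap. The ratio of Tk1 to Tyms was 2.00 ± 0.215 in WT and 2.42 ± 0.233 in MecomWT:R751W, and these groups overlapped (exact two-sided permutation p = 0.2, n = 3 each). Dut, which breaks down dUTP, was at 54.6, 42.4 and 54.5 TPM in WT and 57.4, 59.4 and 58.4 TPM in MecomWT:R751W, with separate groups and a log2 fold change of 0.22 (SE 0.13) that was 0.10 without WT replicate 2. Ung, the glycosylase that removes uracil from DNA, stood at 0.11 (SE 0.16).

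The cyclin E, E2F and histone messenger group had the smallest median difference of the role groups, and none of its 5 members had separate groups. Its mean log2 level also varied most between replicates, with an SD of 0.166 beside 0.079 to 0.099 in the other role groups. Ccne1, which encodes cyclin E1, was at 4.29, 4.23 and 6.85 TPM in WT and 5.10, 7.57 and 4.14 TPM in MecomWT:R751W, with both the highest and the lowest value in altered libraries (log2 fold change 0.10, SE 0.23). Ccne2, for cyclin E2, was at 7.97, 6.58 and 13.1 TPM in WT and at 9.75, 9.96 and 9.52 TPM in MecomWT:R751W, inside the WT range (0.12, SE 0.21). E2f1, an activator of S phase genes, was at 12.1, 7.50 and 11.3 TPM in WT and 8.01, 9.84 and 10.4 TPM in MecomWT:R751W (-0.10, SE 0.19). E2f2, a related activator, was the lowest member, at 2.72, 2.70 and 3.14 TPM against 3.10, 2.86 and 2.97 TPM (0.05, SE 0.18). Slbp, which binds the stem-loop of histone messengers, was at 65.9, 58.9 and 61.2 TPM in WT and 73.0, 66.7 and 65.3 TPM in MecomWT:R751W, a log2 fold change of 0.14 (SE 0.12) that was 0.09 without MecomWT:R751W replicate 1. By role, the median log2 fold change was 0.177 for licensing and firing, 0.17 for polymerases, clamp and fork, 0.165 for nucleotide supply and 0.102 for cyclin E and E2F control, each with 0 members past the adjusted threshold. Without WT replicate 2 these medians were 0.116, 0.095, 0.09 and 0.002, and without WT replicate 1 that of the cyclin E and E2F group was 0.023. It was 0.069 without MecomWT:R751W replicate 2. Whether these role groups differ was not tested. The 10 ratios between members computed in all were chosen after their values were seen, so separate groups in a ratio are a description. No exact permutation p fell below 0.1 (0.25 after Benjamini-Hochberg adjustment over the 10). That adjustment does not account for the choice of pairs.

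WT replicate 2 was the lowest library in 31 of the 44 members, and MecomWT:R751W replicate 3 the highest in 19. The mean log2 level of the 44 was 4.739, 4.575 and 4.821 for WT and 4.88, 4.847 and 4.915 for MecomWT:R751W. WT replicate 2 also had the lowest protein-coding share of TPM, 25.87%. After rescaling to the same protein-coding total, the mean level was 6.41, 6.46 and 6.56 in WT and 6.58, 6.73 and 6.65 in MecomWT:R751W, and WT replicate 1 was then the lowest library most often, in 20 members. Summed over the members, their share of protein-coding TPM was 0.554%, 0.558% and 0.590% in WT and 0.604%, 0.669% and 0.639% in MecomWT:R751W. The genotypes did not overlap on these 3 scales, and the gap between WT replicate 3 and the nearest altered library was small on each. Without WT replicate 2 the median of the members was 0.088 in place of 0.147, with 36 of 44 above 0, and that of all genes -0.065, so the members stood 0.152 above all genes, beside 0.151 with all 6 libraries.

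**Figure D3:**
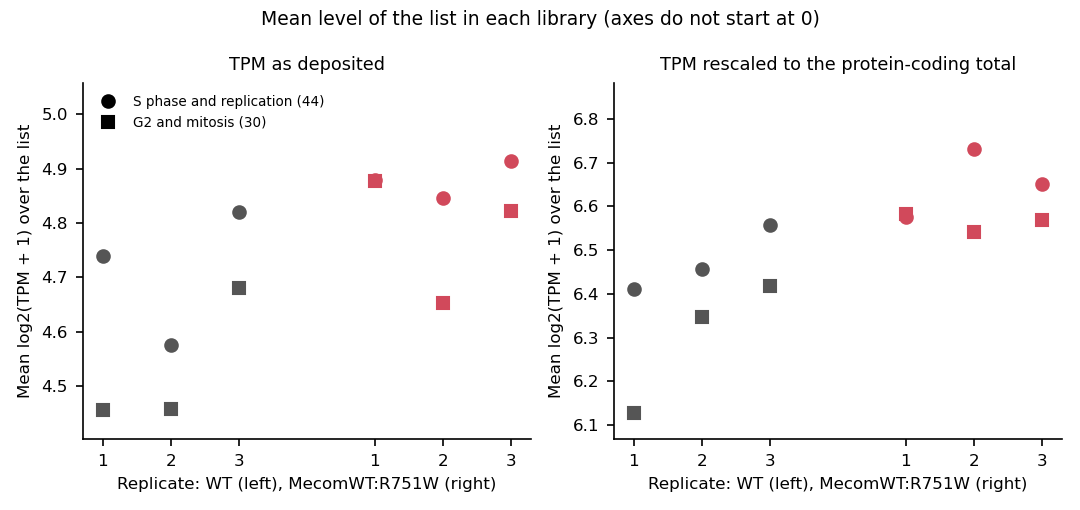
Mean log2(TPM + 1) (y axis) over the 44 S phase and replication members (circles) and over 30 G2 and mitosis genes (squares) in each library (x axis), with WT in grey and MecomWT:R751W in red, for TPM as deposited and for TPM rescaled to the protein-coding total. The circles of the 2 genotypes do not overlap in either panel. The squares overlap as deposited (4.68 in WT replicate 3, 4.65 in MecomWT:R751W replicate 2). After rescaling they do not (6.42 in WT replicate 3, 6.54 in MecomWT:R751W replicate 2).

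The rest of the pathway was read from 3 further lists. Of 38 further genes of the replication machinery, 32 were above 0, against 49% of all genes. Their median was 0.15, as for the members, and 0 passed the adjusted threshold in either direction. In 9 the groups were separate and higher and in 2 separate and lower, beside 4.5% and 4.7% of all genes. The 4 of smallest p were Rpa3, the small subunit of the single-strand binding protein, at 0.54 (SE 0.17), the histone chaperone gene Asf1b at 0.43 (SE 0.19), Pole3 at 0.30 (SE 0.13) and, in the opposite direction, Rnaseh2c, a subunit of RNase H2, at -0.27 (SE 0.12). Rpa3 was at 12.1, 14.9 and 15.3 TPM in WT and 26.9, 18.7 and 18.1 TPM in MecomWT:R751W, while its partners Rpa1 and Rpa2 overlapped. Rnaseh2c, which helps to remove RNA from DNA, was at 52.8 ± 0.955 and 43.6 ± 1.96 TPM. Of 26 further nucleotide supply genes, 18 were above 0 (median 0.06), beside the same 49% of all genes, and 0 passed. In 3 the groups were separate and higher and in 1, Rrm2b, separate and lower. The nucleoside transporter gene Slc29a1 stood at 0.30 (SE 0.16), the deoxycytidine salvage kinase gene Dck at 0.24 (SE 0.15) and Rrm2b, the p53-controlled form of the small reductase subunit, at -0.24 (SE 0.18).

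Of 31 further genes of the step from G1 to S, 19 were above 0 (median 0.08), against 49% of all genes, and 0 passed. The 4 of smallest p were the inhibitor genes Cdkn1c at -0.42 (SE 0.18) and Cdkn1a at -0.62 (SE 0.33), and the repressor E2F genes E2f8 at 0.28 (SE 0.15) and E2f7 at 0.26 (SE 0.16). Cdkn1c was at 9.125, 10.167 and 13.889 TPM in WT and 9.0, 7.137 and 7.726 TPM in MecomWT:R751W, separate and lower. Cdkn1a overlapped, at 7.30, 2.45 and 2.66 TPM against 3.37, 2.10 and 1.14 TPM, with WT replicate 1 highest. E2f7 was at 8.64, 8.41 and 8.48 TPM in WT and 12.1, 10.0 and 9.27 TPM in MecomWT:R751W, separate and higher. In this list of 31, 1 gene was separate and higher and 1 lower, beside 4.5% and 4.7% of all genes. E2f8 overlapped, at 16.9, 16.7 and 23.3 TPM against 22.0, 22.8 and 24.1 TPM, as did the activators E2f1 and E2f2. For comparison, all 30 genes of G2 and mitosis, the later stage, were above 0 with a median of 0.24, against 49% of all genes above 0. In that list 8 of 30 were separate and higher, against 4.5% of all genes, with 0 past the adjusted threshold. Whether that list differs from the S phase genes was not tested.

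**Figure D4:**
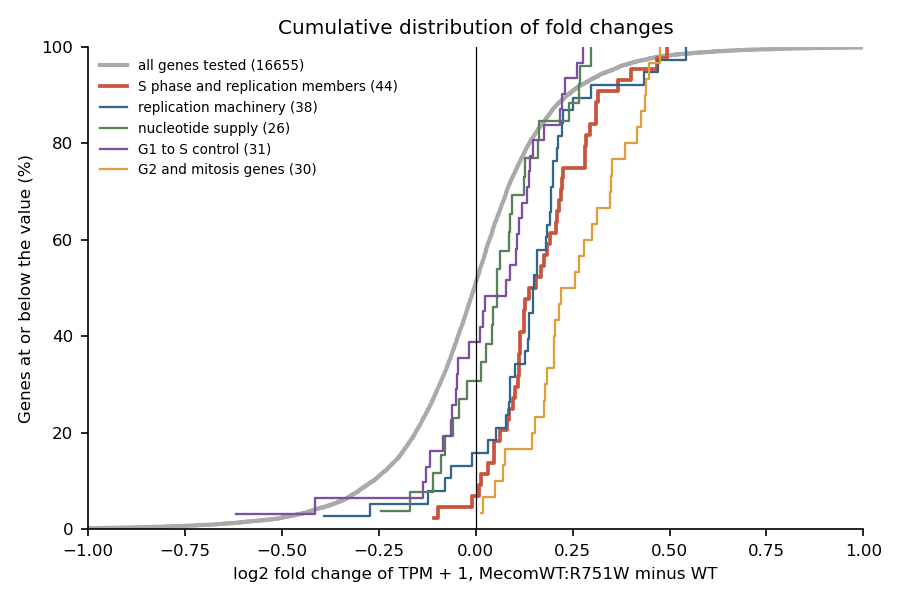
Percentage of genes (y axis) at or below each log2 fold change of TPM + 1 (x axis, MecomWT:R751W minus WT) for the 44 members, 4 further lists and all 16655 genes tested; 1 curve per list. The curve of the members crosses 50% at 0.15, beside -0.004 for all genes and 0.24 for G2 and mitosis.

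Markers of other cell types were read beside these values. Genes of multipotent and cycling progenitors, 5 of 8 listed, summed to 114 to 130 TPM in WT and 124 to 150 TPM in MecomWT:R751W, of which Cd34 made up most. Of these, 4 of the 5 were above 0 and 2 of 5 separate and higher, beside 49% and 4.5% of all genes. Cd48, which the sort excludes, was at 2.18, 1.85 and 1.02 TPM in WT and 3.24, 2.27 and 4.10 TPM in MecomWT:R751W. Flt3, a receptor of multipotent progenitors, was at 11.733, 9.300 and 13.045 TPM in WT and 24.006, 20.424 and 24.125 TPM in MecomWT:R751W. For both genes every altered library lay above every WT library, as it did for the 14 S phase members. Erythroid markers, 9 of 11 in the table, summed to 323 to 403 TPM in WT and 319 to 393 TPM in MecomWT:R751W, mostly Car2. Of the 9, 7 were above 0 with a median of 0.37, and 4 were separate and higher, beside the same 49% and 4.5% of all genes. The erythroid factor gene Klf1 had means of 1.81 and 4.16 TPM (WT, then the altered genotype), Rhd 0.690 and 2.34 TPM, Ermap 0.773 and 2.58 TPM and Car1 0.829 and 4.44 TPM, and for these 4 the groups did not overlap. The T and NK cell markers in the table, 5 of 9, summed to 9.0 to 10.1 TPM in WT and 19.2 to 21.6 TPM in MecomWT:R751W. Nkg7 was the highest of them in every library, and Cd3d, Cd3e, Cd3g and Cd8a were not listed. All 4 that were tested lay above 0 (median 0.75), and 2, Nkg7 and Thy1, were separate and higher. The 12 genes of the sorted fraction summed to 483 to 560 TPM in WT and 422 to 524 TPM in MecomWT:R751W, with 4 of 12 above 0 and a median of -0.10. Their part in the S phase values was not tested.

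Under 3 other scalings between libraries (alignment by protein-coding genes, rescaling to their total, and quantile normalization) 41 of 44 members stayed above 0. Over protein-coding rows alone, limma called 0.351% of genes higher and 0.807% lower in MecomWT:R751W, and 0 members, with a smallest adjusted p of 0.0908 among them. With limma-voom on implied reads, 0.144% were called higher and 0.156% lower, again 0 members, the smallest adjusted p being 0.0592. With voom over protein-coding rows alone, a setting added after the data were seen, Pola1 passed (log2 fold change 0.33, adjusted p = 0.0168, higher in 3 of 3 libraries), where 0.334% of genes were called higher and 0.456% lower. Also over protein-coding rows, Gins2 (0.75, limma adjusted p = 0.00304) and Rrm2 (0.67, limma adjusted p = 0.0181) passed without WT replicate 3, the WT library in which both were highest, where 0.554% were called higher and 1.19% lower.

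**Figure D5:**
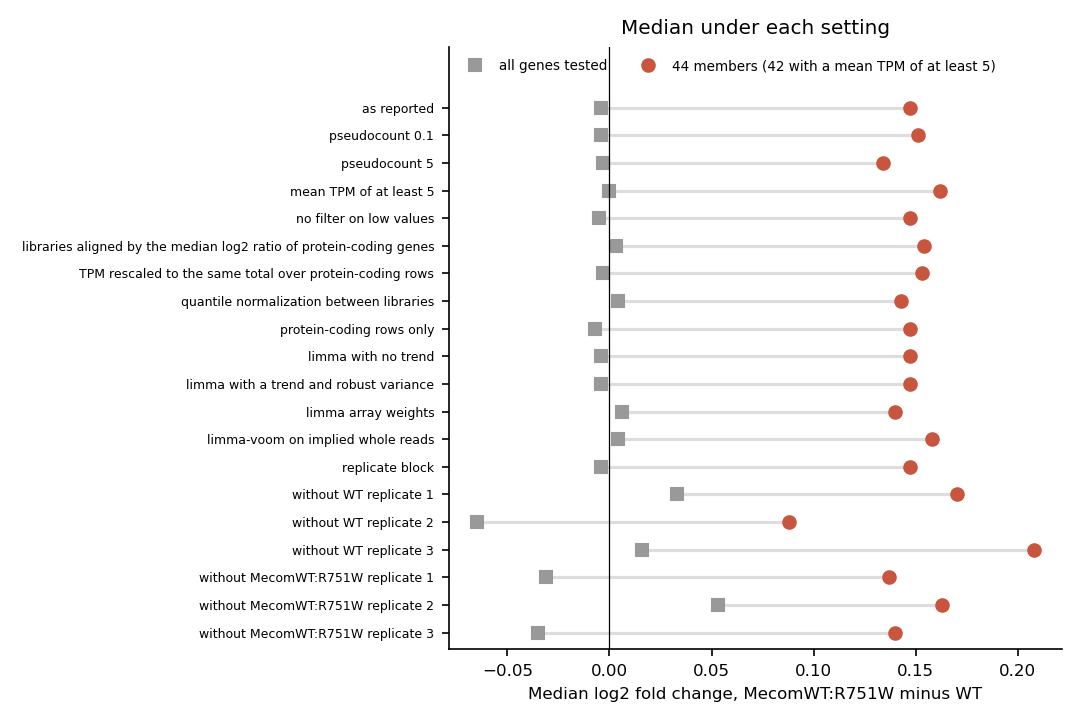
Median log2 fold change (x axis, MecomWT:R751W minus WT) of the members (red circles) and of all genes tested (grey squares) under each setting (y axis), joined by a line. The members lie above all genes in every setting shown, by 0.110 (without MecomWT:R751W replicate 2) to 0.191 (without WT replicate 3).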

How the data were processed

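The authors deposited 1 table of TPM with 1 column per library, scaled to 1000000 over 18465 genes. The submitters' processing notes name mm10 as the build and DESeq2 as a tool, without its role. Aligner, counter, strand setting and annotation: not given in the sources used here. Several library kits are listed in the labels' protocols, by RNA input, without saying which was used. Columns were matched to samples by the library names in the labels. All symbols matched RefSeq GRCm38.p6, which gave gene types (12552 protein-coding), coordinates and promoter windows; starts were compared with GENCODE.

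Limma 3.58.1 (R 4.3.3) was fitted to log2(TPM + 1) (trended variance, no term but genotype, two-sided) for genes whose mean TPM was 1 or more, with Benjamini-Hochberg adjustment over all genes and a threshold of 0.05. A fold change on this scale understates that of low genes. SE is from this fit. Single values were tested by exact two-sided permutation. Within each gene the 6 values implied whole reads for 100.0% of genes within 0.001 reads, up to a common factor. The main fit was run on simulated reads with 2-fold and 4-fold changes at a dispersion of 0.02. It recovered 73.5% of the 2-fold and 100% of the 4-fold changes, and called 7 unchanged genes. Changes as small as those of the members were not simulated. The members, role groups and further lists were chosen with earlier results of these data known. Values in every library are given for 21 members fixed by name and for the 3 of smallest p in each role group; of each further pathway list the 4 of smallest p are named, except for an item that is not reported here. Alternatives changed pseudocount, filter, scaling, rows, variance model, weights and replicate block, used limma-voom on implied reads, and left out each library. Tables and plots were made in Python 3.11.15 (pandas 2.3.3, numpy 2.4.6, matplotlib 3.10.9).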

Additional observations from a re-analysis of the deposited data

How the results depend on the processing

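With all 6 libraries, 4 members changed sign under some alternative. Under limma array weights Gins1 stood at 0.07, Rpa2 at -0.04, Ccne1 at -0.17, Ccne2 at -0.10 and the median of the cyclin E and E2F group at -0.101; Gins1 stood at 0.01 under limma-voom, over all or only protein-coding rows. Leaving out 1 library at a time turned the direction of 11 members, whose log2 fold changes ran from -0.002 to 0.18 (Mcm2), -0.04 to 0.11 (Mcm3), -0.13 to 0.17 (Orc1), -0.11 to 0.12 (Gins1), -0.05 to 0.16 (Rfc4), -0.09 to 0.08 (Rpa2), -0.04 to 0.37 (Chaf1b), -0.04 to 0.09 (Tyms), -0.10 to 0.29 (Ccne1), -0.06 to 0.38 (Ccne2) and -0.29 to 0.02 (E2f1). Those ranges held over all and over protein-coding rows, and include, without MecomWT:R751W replicate 1, -0.07 for Orc1, 0.03 for Gins1, -0.01 for Tyms and 0.01 for E2f1 and, without replicate 3 of that genotype, -0.03 for Rfc4 and -0.07 for Rpa2. The median of the 44 members stayed above that of all genes in every alternative run. Members whose groups did not overlap numbered 16 to 22 without 1 library, including 2 in the lower direction without WT replicate 2, while the share of all genes separate and higher went from 4.5% to between 5.74% and 15.71%.

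The count of all genes past the threshold was 0, and 2 with a mean TPM of at least 5, 5 with robust variance, 1 with array weights, 50 with limma-voom, 132 over protein-coding rows only, and 0 to 13 without 1 library. Over protein-coding rows, settings added after the data were seen gave 29 with the replicate block, 90 with limma-voom, 17 after rescaling and 52 to 198 without 1 library (75, 52 and 198 without WT replicates 1, 2 and 3, and 151, 53 and 108 without the MecomWT:R751W ones). Members past the threshold numbered 0 in every alternative over all rows, 1 with limma-voom over protein-coding rows, and 0 to 2 there without 1 library. The cause of these moves was not tested. With the replicate block over all rows, limma called 0 genes and 0 members, with 13 members at an unadjusted p under 0.05 in place of 7 and 1616 of all genes in place of 995. Same-numbered libraries deviated together by correlations of 0.14, 0.089 and 0.083 across genes, each highest with its own number, beside -0.086 to 0.005 for the other pairings. Protein-coding shares of TPM were also close by number, at 30.11%, 25.87% and 28.88% in WT and 29.73%, 26.02% and 28.89% in MecomWT:R751W. The correlations were not all above 0.1. The main fit was set with genotype only and did not take the numbers as pairs. Whether same-numbered libraries shared a batch was not tested. Depth limits the low members most: Gins3 rests on 42 implied reads in its lowest library.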
